A study of Mus musculus with 6 samples.

Results

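Neutrophils of mouse tumors were followed here as the 323 of 14818 deposited cells that carried neutrophil transcripts but little RNA. They were chosen by measured values. A cell counted as a neutrophil when it had at least 200 detected genes, under 25% of its counts from mitochondrial genes and at most 5000 UMIs (unique molecular identifiers, each standing for 1 captured RNA molecule). It also had to show at least 3 of 6 genes, S100a8, S100a9, Csf3r, Cxcr2, Retnlg and G0s2, and no UMI of the macrophage genes C1qa, C1qb and C1qc or of the T cell genes Cd3d, Cd3e and Cd3g. Levels of these 12 genes are therefore a description of the rule.

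The tumors were grown from MOC-2, a mouse line of head and neck squamous carcinoma (HNSCC), injected under the skin of male mice, and neither strain nor age is given. The labels list 3 tumors injected with vehicle and 3 with an agent named only as experimental, all taken 24 h after an injection into the tumor. The reagents named are copper(II) diethyldithiocarbamate, 2-C1-IB-MECA, 2'3'-c-di-AM(PS)2, 5’ppp-dsRNA/Lyovec, R848, galunisertib, epcadostat, Nw-Hydroxy-nor-L-arginine, L-NMMA, clodronate and 4-1BB ligand, dissolved in DMSO or water. Which of them the treated tumors received is not stated. Cells that passed a live-cell sort with Zombie UV were tagged by tumor and pooled in 1 droplet experiment that reads RNA from its 3' end. The cells fall into 6 barcode sets by the suffix of their barcode, each with its own main tag, but no label ties a set to a tumor. Treated and vehicle tumors could not be compared, so all cells form 1 sample without replicates, no test was run, and each set is given as a single unassigned value.

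Neutrophils are short-lived white cells that leave the bone marrow with their granule proteins largely made, enter inflamed tissue and hold far less RNA than most other cells. They kill microbes with granule proteins and oxidants, and in tissue they also make chemokines and cytokines that call in further cells. In tumors they can take on an inflammatory state, an interferon-responding state or a state with genes of hypoxia and immune suppression.

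Of all cells, 14667 met the limits on genes and mitochondrial counts, and the neutrophils made up 2.20% of these (95% exact binomial interval 1.97 to 2.45%). Their counts summed to 318818 UMIs, with a median of 809 per cell (347 to 4976) and a median of 372 genes (206 to 1777). The matrix as a whole held 141434361 UMIs with a median of 7654 per cell. Of the neutrophils, 267 had under 500 genes and 56 had at least 500. Their mitochondrial share was low, with a median of 0.410% and a maximum of 20.3%. All levels below are CPM, counts scaled to 1000000 UMIs of the named population, not divided by gene length because each UMI marks 1 captured 3' end. Intervals in parentheses are exact 95% Poisson intervals for CPM and for ratios of CPM, and exact binomial intervals for shares. Such intervals hold only the error of counting and leave out any spread among tumors.

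**Figure D1:**
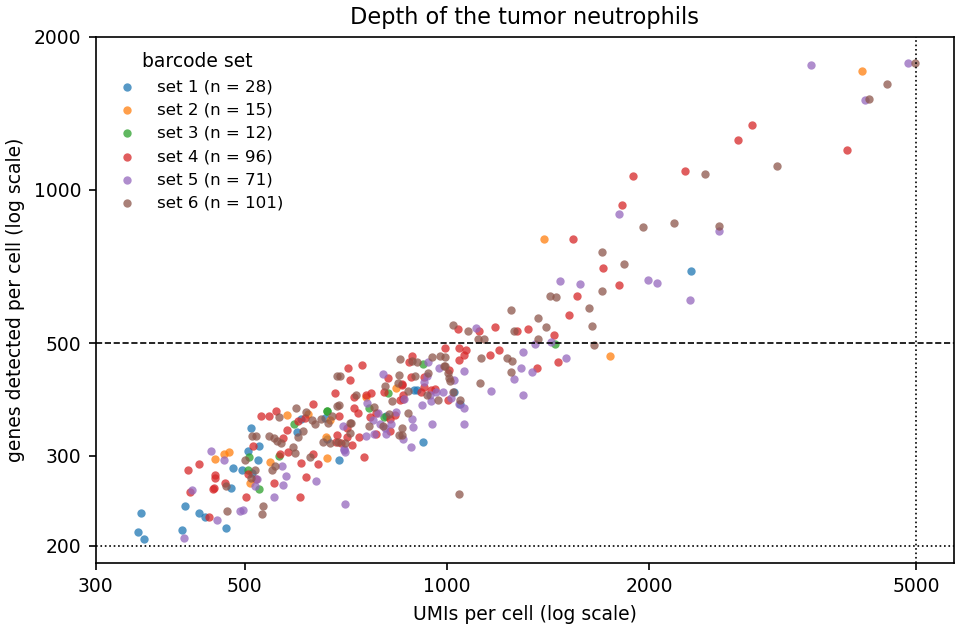
UMIs per cell (x axis, log scale) against detected genes per cell (y axis, log scale) for each of the 323 neutrophils, coloured by barcode set. The dotted lines are the limits of 200 genes and 5000 UMIs and the dashed line is at 500 genes, below which 267 of the cells lie.

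The rule kept 333 of the 5348 cells with at most 5000 UMIs for their 3 or more neutrophil genes, and 10 of these were left out for a C1q UMI and 0 for a Cd3 UMI. A further 29 cells failed only the limit of 5000 UMIs, 4 only the gene minimum and 2 only the mitochondrial limit. Just outside the rule, the 72 cells with exactly 2 of the 6 genes held S100a9 at 7863 CPM, Il1b at 4725 CPM and the monocyte marker list at 8932 CPM. Just inside it, the 101 cells with exactly 3 of them held S100a9 at 22653 CPM, Il1b at 10081 CPM and the monocyte markers at 4863 CPM. The 118, 89 and 15 cells with 4, 5 and 6 of the genes had the monocyte markers at 3278, 3195 and 3477 CPM. Cells at the edge of the rule thus held more monocyte transcripts than cells well inside it.

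Of the genes used by the rule, S100a9 (chromosome 3, 90692632 to 90695721, mm10) and S100a8 (chromosome 3, 90668978 to 90670035) encode the 2 subunits of calprotectin, the main cytosolic protein of neutrophils. They stood at 39019 CPM (38336 to 39711) and 24230.1 CPM (23693 to 24777). Retnlg, a resistin-like secreted protein, stood at 5972 CPM (5707 to 6246), and G0s2, an inhibitor of fat breakdown, at 3372 CPM (3173 to 3579.6). The receptor genes were far lower, with Csf3r, the receptor of the growth factor G-CSF, at 577 CPM (497 to 667) and Cxcr2, the receptor that draws neutrophils to CXC chemokines, at 464 CPM (392 to 545). S100a9 was detected in 99.4% of the neutrophils, and Csf3r in 40.2% and Cxcr2 in 32.8%.

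The label was checked against defining genes of other types. Beside the Cd3 genes, which the rule sets to 0, all 323 neutrophils had 0 UMIs of 5 T cell, 5 NK cell, 5 mast cell or basophil, 4 erythroid and 4 platelet markers, each list allowing up to 9.41 CPM by 3 counts. The eosinophil list held 2 UMIs. Macrophage markers summed to 100.4 CPM, all of it from genes other than the C1q genes, which the rule sets to 0. Monocyte markers (6 of 6 detected) were higher, at 3682 CPM (3475 to 3899), against 10784 CPM in monocytic cells of the same depth limit, which were chosen on such genes, and 135 neutrophils had none. The 5 fibroblast markers summed to 1782 CPM, of which 336 of 568 UMIs lay in 1 cell of set 6. The 10 carcinoma markers summed to 210.2 CPM, of which 39 of 67 UMIs lay in 1 cell. B cell, endothelial and dendritic cell markers were each under 51 CPM. Neutrophil markers outside the rule were present: Ly6g, the gene of the classic mouse neutrophil surface antigen, had 31 UMIs (97.2 CPM) and stood at 2.45 CPM in all other cells. Wfdc21, a whey acidic protein gene of mature neutrophils, stood at 1189 CPM against 1.41 CPM in all other cells.

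A group of 22 neutrophils had at least 10 UMIs of the monocyte list, and a median of 2084 UMIs each against 778 in the other 301. They held Plac8, a member of that list, at 7866 CPM against 1275 CPM in the others. Plac8 gave 422 of the 692 list UMIs of the 22 cells, so its difference follows from how they were picked. Lyz2, which is not in that list, was at 2162 against 173 CPM. S100a9 was at 16012 against 43674 CPM and Csf3r at 205 against 652 CPM. The summed interferon response list, described below, stood in the 22 and the other cells at 26097 and 25470.3 CPM, and chemokines at 57618 against 96507 CPM. Their part in the results below was not tested.

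Of the deposited cells, 3 populations served for comparison. All other cells are the 14344 remaining cells. Monocytic cells have no C1q or Cd3 UMI, at least 3 of Ly6c2, Ccr2, Ms4a6c, F13a1, Fn1, Plac8, Csf1r and Lyz2, and fewer than 3 of the 6 neutrophil genes. Macrophages have at least 3 C1q UMIs over at least 2 of the C1q genes. Monocytic cells of any depth held the carcinoma markers at 681 CPM and those with at most 5000 UMIs at 60.9 CPM, so unless said otherwise both names mean cells with at most 5000 UMIs, 765 monocytic cells and 1031 macrophages, a limit added after seeing the data. Genes with at least 50 UMIs over both groups were compared. A gene was called higher at 2-fold or more, with at least 20 UMIs in neutrophils, and lower at 0.5-fold or less. Of 14508 genes, 5.3% were called higher in neutrophils than in all other cells, 769 genes, and 28.6% lower. With at least 500 genes required of a neutrophil the 769 became 442. With at most 1 UMI allowed of 6 other cell type lists (monocyte, NK cell, B cell, fibroblast, endothelial and carcinoma) they became 461. Against monocytic cells 7.87% of 4305 genes were called higher, 339 genes, and 45.1% lower. Against macrophages 8.18% were higher and 53.1% lower. Without the depth limit the shares were 6.87% and 46.4% against monocytic cells and 6.37% and 45.2% against macrophages. The median gene of at least 20 CPM stood at 0.606-fold of its level in monocytic cells, and list medians below are read beside it. Counts of list members called higher or lower than in monocytic cells are likewise read beside 7.87% and 45.1% of all genes. Genes with near-identical copies can split or share reads, which makes the single levels of the Stfa and Cstdc, Bcl2a1, Ifit1 and Ifit1bl1, Ifit3 and Ifit3b, and Mrgpra genes uncertain.

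The transcripts of the neutrophils were held by few genes. Cxcl2, S100a9, Fth1, S100a8, Malat1, Ccl4, Srgn, Tmsb4x and Il1b were the 9 genes with the highest levels, down to 10934 CPM. Genes of ribosomal proteins, by contrast, took 3.27% of the UMIs, against 9.76% in monocytic cells, 10.8% in macrophages and 15.5% in all other cells. Single genes of the ribosome showed the same, with Rps18 at 185 against 1102 CPM in monocytic cells, Rpl12 at 219.6 against 919 CPM and Rpl3 at 119 against 537 CPM. Tubb5, a tubulin, stood at 78.4 against 305 CPM. The nuclear RNA Malat1, by contrast, was at 23556 CPM against 13617 CPM in monocytic cells.

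**Figure D2:**
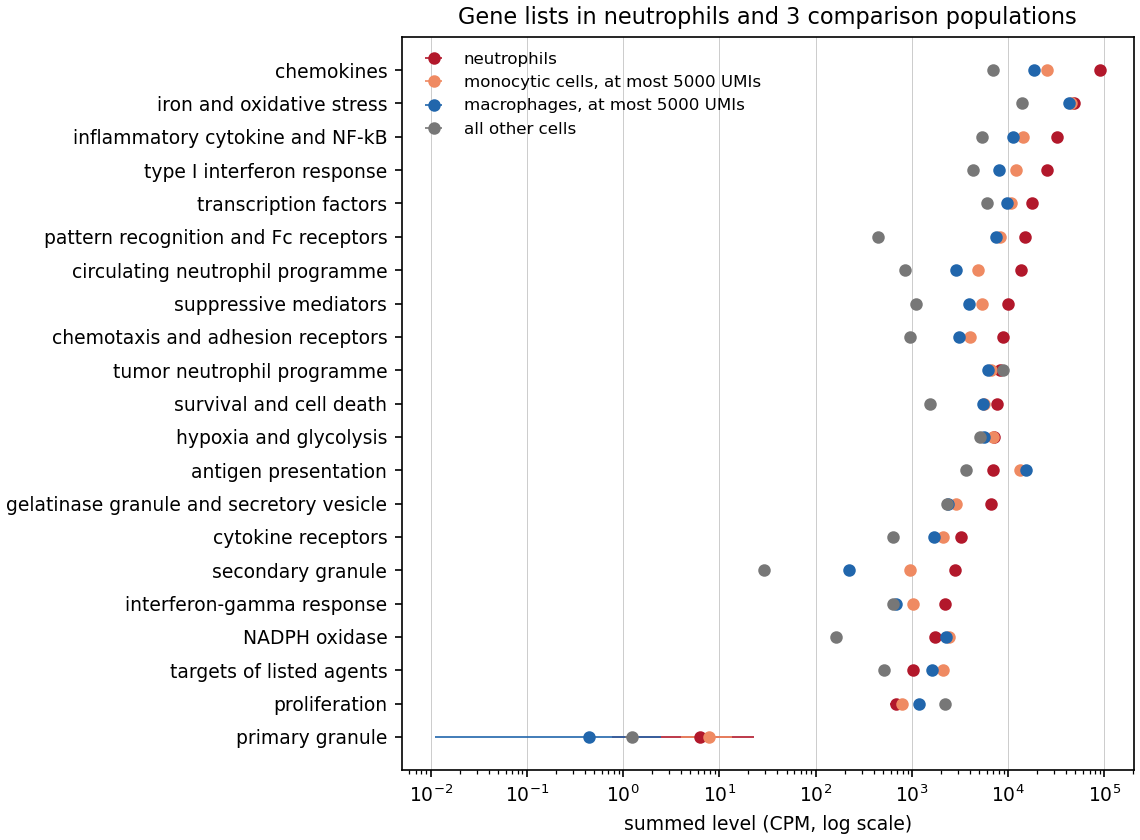
Summed level of 21 gene lists (x axis, CPM on a log scale) in neutrophils, in monocytic cells and macrophages with at most 5000 UMIs and in all other cells; bars are exact 95% Poisson intervals. Neutrophils are the highest of the 4 for chemokines (89964 CPM), inflammatory genes (32388 CPM) and interferon response genes (25576 CPM), and below monocytic cells and macrophages for antigen presentation (6891 CPM).

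Primary granule genes, which are made in bone marrow precursors, were nearly absent in neutrophils: Mpo, Elane and Ctsg had 0 UMIs and Prtn3 had 2. Secondary granule genes, made later, summed to 2817 CPM (2635 to 3007), 2.96-fold (2.72 to 3.22) the level in monocytic cells, with 2 of 3 compared members called higher and 1 lower. Lcn2, an iron-binding lipocalin, was at 1697 against 181 CPM in monocytic cells, and Mmp8, neutrophil collagenase, at 630.5 against 104 CPM. Ngp, with 41 UMIs here and 0 there, was at least 66.2-fold higher by a floor of 3 counts in the monocytic cells, and Chil3, a chitinase-like protein, was lower at 314 against 658 CPM. Ltf and Camp, further secondary granule genes, had 1 UMI each.

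Genes of gelatinase granules and secretory vesicles, which mature neutrophils still make, summed to 6665 CPM (6385 to 6955), with 4 of 7 compared members called higher than in monocytic cells and 0 lower. Slpi, an inhibitor of neutrophil elastase, alone made up 58.4% of the sum, at 3896 against 805 CPM. Mmp9, gelatinase B, was at 401 against 48.6 CPM. Adam8, a surface protease, was at 492 against 223 CPM, while Alox5ap, needed for leukotriene synthesis, was nearly level at 888 and 855 CPM. The NADPH oxidase, the enzyme complex that makes superoxide, was mixed. Its 6 genes summed to 1731 CPM (1590.0 to 1882), 0.716-fold (0.654 to 0.783) the monocytic level. Its membrane subunits Cybb and Cyba were called lower, at 295 against 816 and 461 against 989.9 CPM, while the cytosolic subunit Ncf1 was called higher, at 216 against 73.8 CPM.

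Receptors for chemotaxis and adhesion reached 8764 CPM (8442 to 9095), 2.20-fold (2.11 to 2.30) the monocytic level, with 6 of 15 members called higher and 1 lower. The formyl peptide receptors Fpr1 and Fpr2, which sense bacterial and mitochondrial peptides, were at 461 against 18.8 and 822 against 120.4 CPM. Ccr1, a receptor of Ccl3, was at 1713 against 382 CPM, and Ccrl2, a surface protein that holds chemerin, at 1041 against 166 CPM. Cxcr4, which retains cells in marrow and marks aged neutrophils, was at 269.7 against 370.3 CPM, short of 2-fold. C3ar1, a complement receptor, was the member called lower, with 5 UMIs. Cd44, an adhesion receptor for hyaluronan, had the highest level of the list at 1857 CPM (1710.3 to 2013), 1.35-fold (1.23 to 1.47) the monocytic level.

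Receptors of microbial and danger signals were at 15039.9 CPM (14617 to 15472), 1.81-fold (1.75 to 1.88) the monocytic level, with 7 of 14 members called higher and 1, the inhibitory Fc receptor Fcgr2b, lower. The C-type lectins Clec4e and Clec4d, which bind fungal and mycobacterial glycolipids, were at 3526 against 1032 and 2255 against 440.2 CPM. Trem1, an amplifier of inflammatory signals, was at 1389.5 against 99.7 CPM and Cd14, the co-receptor for endotoxin, at 3096 against 1081 CPM. Fcer1g, the signalling chain shared by Fc receptors, was near level at 3243 and 4038 CPM. Of 16 cytokine receptors, 3 were called higher and 5 lower, with a median member fold of 0.900 beside 0.606 for all genes. The 3 higher ones were Csf2ra, a chain of the GM-CSF receptor, and a pair of interleukin-1 receptors. The decoy receptor Il1r2 stood at 1261 against 278 CPM and the accessory chain Il1rap at 527 against 35.0 CPM. The chains of the interferon receptors were low, with Ifnar1 at 22.0, Ifnar2 at 72.1, Ifngr1 at 56.5 and Ifngr2 at 25.1 CPM. All were called lower than in monocytic cells, as were 45.1% of all genes compared. These levels rest on few UMIs, since 3 counts equal 9.41 CPM.

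Chemokines, the secreted proteins that guide cell migration, were the most abundant list in neutrophils, at 89964 CPM (88925 to 91011), 3.59-fold (3.54 to 3.65) the monocytic level and 12.8-fold that of all other cells. Without the limit of 5000 UMIs, which adds 29 cells, the level was 47519 CPM. The sum was carried by few genes: 5 of 15 members were called higher than in monocytic cells and 7 lower. Of all genes compared, 7.87% were called higher and 45.1% lower, so the share of lower members was near that of all genes. The median member stood at 0.541-fold, beside 0.606 for all genes. Cxcl2 (chromosome 5, 90903871 to 90905938, mm10), a ligand of Cxcr2 that draws in further neutrophils, alone made up 56.6% of the sum at 50897 CPM (50117 to 51687). In barcode sets 1 to 6 its level was 81205, 41432, 81254, 43701, 59372 and 44382 CPM, above the 13158 CPM of all monocytic cells in each set. Cxcl3, a close relative with the same receptor, was at 5985 against 1647 CPM.

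Ccl4 and Ccl3, which attract T cells, NK cells and monocytes, were at 20783 CPM (20286 to 21289.6) and 7945 CPM (7639 to 8261). Ccl4 was 11.2-fold (10.7 to 11.7) and Ccl3 9.96-fold (9.30 to 10.7) the monocytic level, and Ccl6 was the fifth called gene, at 2177 against 1017 CPM. Chemokines that draw in monocytes were among the members called lower, whose share was near that of all genes. Ccl2 was at 260.3 against 2558 CPM, Ccl7 at 176 against 886 CPM and Ccl12 at 6.27 against 436 CPM. Cxcl9, an interferon-gamma induced ligand of Cxcr3, had 0 UMIs in neutrophils, while its relative Cxcl10 had 283. With every cell thinned to 300 UMIs, 98.5% of neutrophils had a Cxcl2 UMI, against 66.1% of monocytic cells and 16.9% of 2000 cells drawn from the rest. For Ccl3 these shares were 64.4, 17.0 and 2.30%, against 81.4% of neutrophils before thinning. No cell was left out by thinning, which sets aside the difference in depth between a median of 809 UMIs in neutrophils and 1850 in monocytic cells.

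Inflammatory cytokines and genes of the NF-kB pathway, a transcription factor route switched on by microbial products and interleukin-1, summed to 32388 CPM (31767 to 33019), 2.27-fold (2.22 to 2.32) the monocytic level, and to 18704 CPM without the limit of 5000 UMIs. Of 23 compared members, 9 were called higher and 1, Il10, lower, with a median member fold of 1.80. Il1b (chromosome 2, 129364570 to 129371139, mm10), the precursor of the fever cytokine interleukin-1 beta, stood at 10934 CPM (10574 to 11303), 3.65-fold (3.50 to 3.82) the monocytic level. In sets 1 to 6 Il1b was at 8823, 7226, 10256, 11409.6, 10212 and 11974 CPM, lowest in set 2 and highest in set 6. Nlrp3, the sensor of the inflammasome that matures interleukin-1 beta, was at 1352 against 434 CPM, and Il1a at 589.7 against 185 CPM. Brakes on the same route were also high: Il1rn, the receptor antagonist, was at 2011 against 679 CPM and the inhibitor Tnfaip3 at 1261 against 579 CPM. The NF-kB regulator Nfkbiz was at 2171 against 632 CPM. Nfkbia, an inhibitor that NF-kB itself induces, was at 4796 against 2569 CPM and Ptgs2, the prostaglandin-making cyclooxygenase, at 3021 against 1941 CPM, both short of 2-fold. Tnf was at 706 CPM, and Il6 at 65.9 CPM with 21 UMIs.

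Many NF-kB sites hold GGG followed after any 2 bases by TTTCC, which was searched on both strands with overlapping matches counted apart. Within the 250 bases upstream of the start it was present in 4 of 9 chemokine promoters and 5 of 18 inflammatory promoters that could be matched, against 1.41% of 32851 promoters of the same length. The upstream sequences of Cxcl2 and Cxcl3, the 2 members of either list with a match and the highest levels, are shown because both encode ligands of the receptor Cxcr2. They are RefSeq sequences on GRCm38.p6, 5′ to 3′ on the gene's strand, with matches in capitals. Cxcl2 lies at chr5:90903649-90903898 on the plus strand and Cxcl3 at chr5:90785851-90786100 on the plus strand. The 2 matches of Cxcl2 begin 97 and 78 bases before the start and the match of Cxcl3 73 bases before it. A match is a description of letters, not a site shown to be bound.
Cxcl2: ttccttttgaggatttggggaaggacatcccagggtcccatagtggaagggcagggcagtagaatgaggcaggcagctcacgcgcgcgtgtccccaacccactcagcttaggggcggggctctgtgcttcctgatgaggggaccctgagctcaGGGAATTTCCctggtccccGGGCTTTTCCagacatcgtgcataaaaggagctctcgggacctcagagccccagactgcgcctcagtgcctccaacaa
Cxcl3: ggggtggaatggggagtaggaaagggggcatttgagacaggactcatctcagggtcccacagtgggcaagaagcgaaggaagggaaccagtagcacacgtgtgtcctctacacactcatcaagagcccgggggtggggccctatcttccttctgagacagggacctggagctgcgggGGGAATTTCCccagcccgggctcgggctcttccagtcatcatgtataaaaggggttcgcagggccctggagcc

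Type I interferons are antiviral cytokines whose signal switches on a common set of genes. Of 34 such genes in the matrix all were detected in neutrophils, and they summed to 25576 CPM (25024 to 26137), 2.11-fold (2.05 to 2.16) the level in monocytic cells, 3.16-fold that in macrophages and 5.98-fold that in all other cells. These ratios pool barcode sets that weigh unequally. Sets 5 and 6 held 22.0 and 31.3% of the neutrophils, against 22.1 and 12.9% of the monocytic cells. By the set levels given below, the ratio to all other cells was under the pooled one in each set. The ratios to monocytic cells and macrophages were under the pooled ones in every set but set 5. Without the limit of 5000 UMIs the list summed to 14596 CPM in neutrophils. Of 33 compared members 19 were called higher than in monocytic cells and 3 lower, with a median member fold of 2.34 beside 0.606 for all genes. Slfn4 (chromosome 11, 83175186 to 83190216, mm10), a schlafen gene of myeloid cells, led the list at 3874 CPM (3661 to 4096) and 11.4-fold (10.3 to 12.6) the monocytic level. Rsad2 (chromosome 12, 26442746 to 26456452), which encodes the antiviral enzyme viperin, was at 3293 CPM (3097 to 3499) and 6.57-fold (5.98 to 7.22). Isg15, a ubiquitin-like protein, was at 2277 against 973 CPM, Ifit1, which binds viral RNA, at 1703 against 165 CPM and Trim30a at 891 against 319.8 CPM. Ifitm3, a membrane protein that hinders viral entry, was level at 3271 and 3163 CPM. Bst2, Ifi205 and Phf11d were the 3 called lower, Bst2 at 238 against 794 CPM. Of the transcription factors of this signal, Stat2 stood at 109.8, Irf9 at 141 and Irf7 at 245 CPM.

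In cells thinned to 300 UMIs, Slfn4 was seen in 50.5% of neutrophils against 10.2% of monocytic cells and 0.600% of the cells drawn from the rest. For Rsad2 the shares were 42.4, 10.8 and 2.45% and for Ifit1 28.8, 3.53 and 2.50%. S100a9 and S100a8, counted the same way, were in 0.5 and 0.8% of the drawn cells and in 0.915 and 3.14% of monocytic cells. Before thinning, S100a9 was in 2.35% of the drawn cells, whose median depth was 9399 UMIs. These shares set no limit on free RNA in neutrophils, because thinning a deeper cell also thins the free RNA in it.

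The core of the interferon-stimulated response element, GAAA followed after any 2 bases by GAAA, was searched on both strands of the same 250 bases, with overlapping matches counted apart. It was present in 12 of 27 matched promoters of the interferon list (44.4%) and in 2.98% of 32851 promoters. The 4 list members with a match and the highest levels are shown, since they carry much of the interferon signal: Rsad2 at chr12:26456453-26456702 on the minus strand, Isg15 at chr4:156200819-156201068 on the minus strand, Ifit1 at chr19:34640639-34640888 on the plus strand and Trim30a at chr7:104465194-104465443 on the minus strand. They are RefSeq sequences on GRCm38.p6, 5′ to 3′ on the gene's strand, with matches in capitals. Isg15 holds 3 overlapping matches and Ifit1 holds 2. The nearest match begins 120 bases before the start in Rsad2, 66 in Isg15, 85 in Ifit1 and 36 in Trim30a.
Rsad2: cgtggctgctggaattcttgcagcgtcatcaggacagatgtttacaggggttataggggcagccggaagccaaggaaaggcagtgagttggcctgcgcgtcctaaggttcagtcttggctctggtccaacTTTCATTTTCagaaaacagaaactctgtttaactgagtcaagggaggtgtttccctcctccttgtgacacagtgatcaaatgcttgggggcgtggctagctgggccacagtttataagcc
Isg15: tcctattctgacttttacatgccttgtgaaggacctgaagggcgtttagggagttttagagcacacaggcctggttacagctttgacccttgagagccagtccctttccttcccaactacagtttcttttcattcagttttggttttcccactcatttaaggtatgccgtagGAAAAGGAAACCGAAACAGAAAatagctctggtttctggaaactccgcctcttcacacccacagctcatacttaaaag
Ifit1: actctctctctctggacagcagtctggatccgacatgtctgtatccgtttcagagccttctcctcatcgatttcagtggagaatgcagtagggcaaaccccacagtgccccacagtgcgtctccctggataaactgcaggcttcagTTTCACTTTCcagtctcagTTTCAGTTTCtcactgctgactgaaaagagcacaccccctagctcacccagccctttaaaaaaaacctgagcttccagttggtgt
Trim30a: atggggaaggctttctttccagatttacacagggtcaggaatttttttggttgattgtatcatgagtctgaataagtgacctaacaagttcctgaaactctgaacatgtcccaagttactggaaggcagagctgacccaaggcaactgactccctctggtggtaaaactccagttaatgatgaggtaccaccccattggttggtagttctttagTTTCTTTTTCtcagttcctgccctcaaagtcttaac

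Among the functional lists above 5000 CPM in neutrophils, interferon genes differed most widely between barcode sets. In sets 1 to 6 it stood at 6971, 12526, 11738, 16252, 37615 and 30565 CPM, a 5.40-fold range, from 28, 15, 12, 96, 71 and 101 neutrophils. Sets 5 and 6 were the highest, set 4 lay between, and sets 1 to 3 the lowest. Monocyte markers in the same neutrophils ranked the sets in the same order, at 327, 1032, 684, 2794, 6609.6 and 3457 CPM. Sets 1 to 3 held only 6, 15 and 6 of these UMIs. Their intervals overlapped, so the order among these sets by monocyte markers is not resolved. With at most 1 UMI of 6 other cell type lists allowed per neutrophil, the interferon level over all sets was 18908 CPM. In monocytic cells the list stood at 7885, 7405, 8423, 13045, 17138 and 14777 CPM, and macrophages at 3961, 5129.9, 6210.0, 8731, 10906 and 10631 CPM. All other cells stood at 2553, 2616, 2899, 4694, 6552 and 6185 CPM, so sets 5 and 6 were the highest in each of these populations. In sets 2 to 6 the neutrophil level was above the monocytic level of the same set, and in set 1 it was not. Set 2 held only 182 interferon UMIs. One of its cells, with 1748 UMIs, had 26 interferon UMIs after thinning to 300, against a median of 3 in that set. The part of that cell in the level of set 2 was not tested. Of single genes, Slfn4 stood at 1035, 1032, 1937, 2237, 5519 and 5051 CPM in sets 1 to 6, Rsad2 at 817, 2340.0, 1139.6, 1046, 6178 and 3779 CPM and Isg15 at 436, 1583, 798, 1603, 3489 and 2479 CPM. Cxcl10, an interferon-induced chemokine, was high in set 5 and low in sets 1 to 4, at 109, 138, 114, 145, 2613 and 544 CPM. Whether the sets differ by treatment cannot be told apart from any other difference between tumors.

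**Figure D3:**
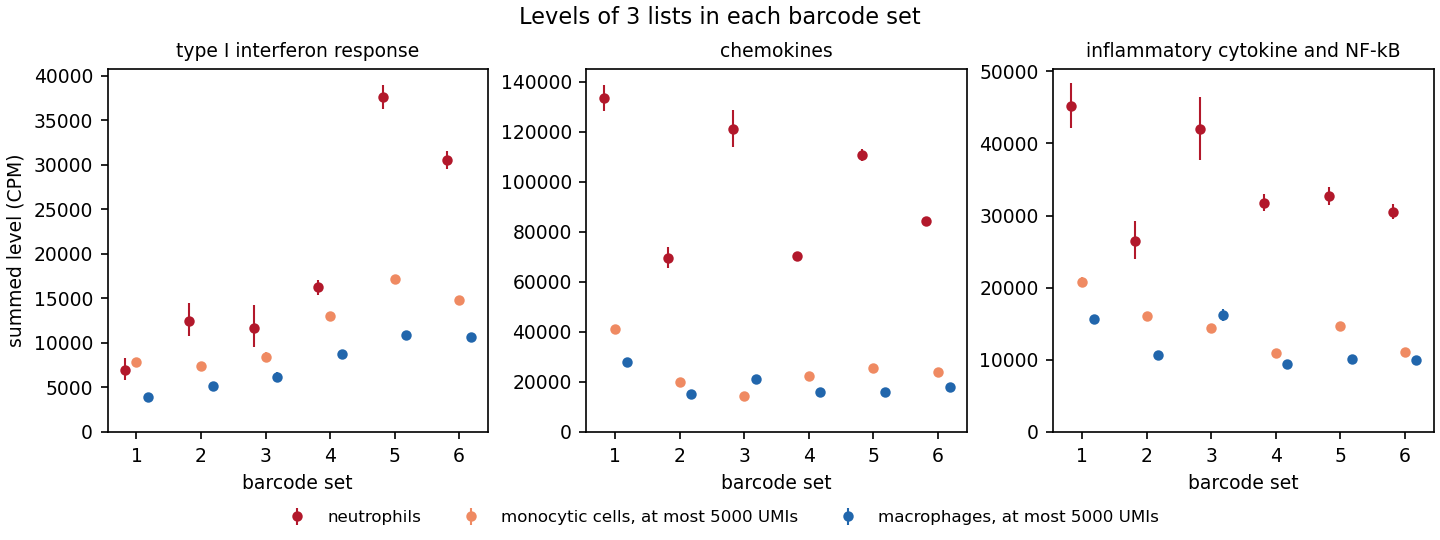
Summed CPM (y axis) of the interferon, chemokine and inflammatory lists in each barcode set (x axis), in neutrophils and in monocytic cells and macrophages with at most 5000 UMIs; bars are exact 95% Poisson intervals and each point pools the cells of 1 set. Interferon genes in neutrophils are highest in sets 5 and 6 (37615 and 30565 CPM) and lowest in set 1, while chemokines are highest in set 1.

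Chemokines and inflammatory genes did not follow the same sets. Chemokines stood at 133272, 69649, 121026, 70249.5, 110612 and 84164 CPM in sets 1 to 6, highest in set 1 and lowest in set 2, and inflammatory genes at 45150.0, 26497, 41937, 31779.8, 32693 and 30528 CPM. Both lists were above the monocytic level in each of the 6 sets, where chemokines stood at 41191, 20130.1, 14309, 22393, 25643 and 23952 CPM and inflammatory genes at 20836, 16069.8, 14363, 10947, 14667 and 11101 CPM. Secondary granule genes, at a lower level, differed more widely between sets, with 381, 826, 684, 2649, 5531 and 1834 CPM. In monocytic cells that list stood at 407, 412, 353, 1165, 1266 and 1619 CPM. Ifitm6, a gene of circulating neutrophils, was in neutrophils at 54.5, 138, 0, 1113, 1598 and 1115 CPM. Monocyte markers, given above, were also highest in set 5 and lowest in set 1, and their part in the differences between sets was not tested further.

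Per cell, the thinned counts show how the interferon signal was spread. The median neutrophil had 6 interferon UMIs in 300, the quartiles were 2 and 11.5, and the highest cell had 46. The median was 0.5 in set 1, 3 in sets 2 and 3, 4 in set 4, 11 in set 5 and 8 in set 6. In set 1 there were 14 of 28 neutrophils without an interferon UMI, against 1 of 71 in set 5 and 1 of 101 in set 6. Over the 323 cells, which share 1 experiment and come from 6 sets, interferon UMIs ranked with interferon-gamma response UMIs at a Spearman rho of 0.429, and at 0.266, 0.478 and 0.426 within sets 4, 5 and 6. They ranked with monocyte marker UMIs at 0.324, and within those sets at 0.272, 0.230 and 0.265. Chemokine and inflammatory UMIs ranked together at 0.328, and within those sets at 0.445, 0.351 and 0.333.

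**Figure D4:**
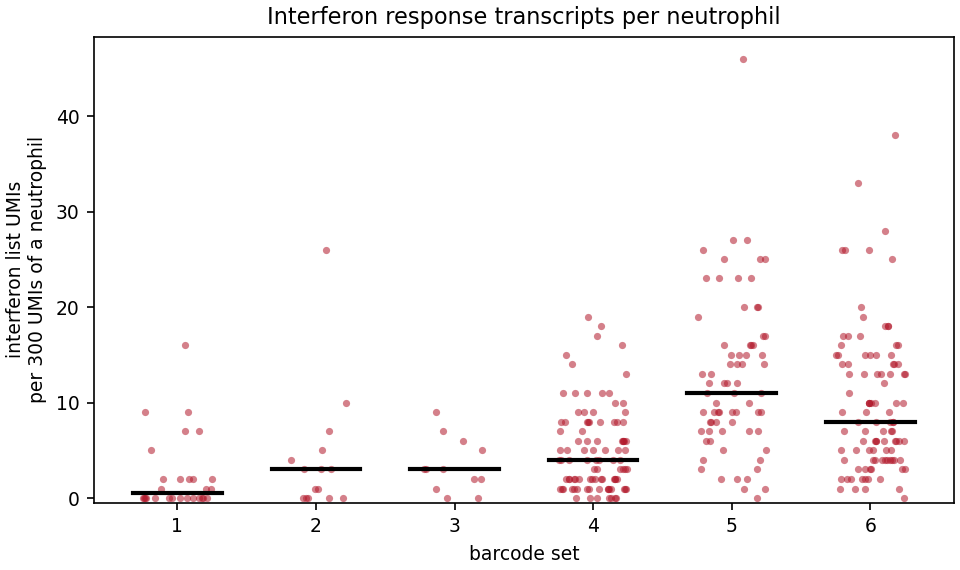
Interferon list UMIs per neutrophil after thinning each cell to 300 UMIs (y axis), by barcode set (x axis, 28, 15, 12, 96, 71 and 101 cells); each point is 1 cell and each bar the median of the set. Sets 5 and 6 have medians of 11 and 8 UMIs and nearly no cells at 0, while 14 of 28 cells of set 1 are at 0.

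Interferon-gamma, made by T and NK cells, induces an overlapping set of genes, which summed to 2192 CPM (2033 to 2361), 2.12-fold (1.94 to 2.32) the monocytic level, with 5 of 11 members called higher and 1 lower. The guanylate-binding protein Gbp2 was at 775 against 180.0 CPM and the immunity GTPase Ifi47 at 423 against 176 CPM. Irf1, a transcription factor of this response, was at 232 against 111 CPM. In sets 1 to 6 Gbp2 stood at 163, 688, 1139.6, 200.4, 1497 and 811 CPM, and set 4, with 96 neutrophils, was nearer to set 1 than to sets 5 and 6.

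Antigen presentation had the lowest median member fold of all lists, 0.0936. Its sum stood at 6891 CPM (6606 to 7185), 0.516-fold (0.493 to 0.539) the monocytic level. Of its 9 members 1 was called higher and 5 lower, beside 7.87% and 45.1% of all genes. The class II genes, which load peptides for helper T cells, were low in neutrophils, with Cd74 at 62.7 against 1665 CPM, H2-Ab1 at 12.5 against 793 CPM and H2-Aa at 107 against 1392 CPM. Class I genes were closer, with B2m at 3397 against 4591 CPM, H2-K1 at 1960.4 against 2546 CPM and H2-D1 at 1126 against 1234 CPM. Cd80, a co-stimulator of T cells, was the 1 member called higher, at 185 against 69.3 CPM with 59 UMIs.

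Genes of circulating neutrophils and genes of neutrophils that settle in tumors were both present. The first list summed to 13484 CPM (13084 to 13893), 2.81-fold (2.70 to 2.92) the monocytic level, with 11 of 12 members called higher and 1, lysozyme gene Lyz2, lower at 508 against 2202 CPM. Lyz2 is among the genes by which the monocytic cells were chosen, which raises its level there. The interferon-inducible membrane genes Ifitm1 and Ifitm6 were at 1985 against 747 and 1098 against 150.2 CPM, and Klf2, a factor of quiescent blood cells, at 568 against 117 CPM. The tumor list summed to 8212 CPM (7900.0 to 8532), 1.23-fold (1.18 to 1.28) the monocytic level. Of its 10 compared members 3 were called higher and 1 lower, beside 7.87% and 45.1% of all genes. Spp1, osteopontin, made up 48.4% of the tumor list at 3971 CPM, but at 300 UMIs a Spp1 UMI was seen in 39.9% of neutrophils, 29.7% of monocytic cells, 20.2% of macrophages and 47.7% of the cells drawn from the rest. The part of free RNA in its level was not tested. The 3 called genes were Hilpda, a lipid droplet protein of hypoxia, at 1038 against 391 CPM, Cd274, the checkpoint ligand PD-L1, at 768 against 314 CPM, and Tnfrsf23, a decoy TRAIL receptor, at 207 against 38.2 CPM. Siglecf, a lectin used to mark long-lived tumor neutrophils, had 4 UMIs. Hilpda was uneven over sets 1 to 6, at 2723, 344, 114, 891, 875 and 1161 CPM.

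Mediators linked to immune suppression summed to 9880.2 CPM (9538 to 10231), of which Wfdc17, an activated-macrophage whey acidic protein, held 50.2% at 4959 against 823 CPM. Of 10 compared members 3 were called higher and 3 lower than in monocytic cells, beside 7.87% and 45.1% of all genes. Wfdc17, Cd274 and Arg2, the mitochondrial arginase, were the higher ones, Arg2 at 514 against 166 CPM. Arg1, the cytosolic arginase, was lower, at 104 against 1313 CPM, and 15 of its 33 UMIs lay in 1 cell. Tgfb1 and Il10 were the other lower members.

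Of 12 genes encoding targets of the named reagents, 10 were detected in neutrophils. Of the 9 with enough UMIs to compare, 2 were called higher than in monocytic cells and 5 lower, beside 7.87% and 45.1% of all genes. Arg2 and Arg1, the arginases that nor-arginine inhibits, are given above. Nos2, the inducible nitric oxide synthase that L-NMMA inhibits, was at 122 CPM (87.0 to 167) and in 7.43% of the neutrophils, and in sets 1 to 6 at 54.5, 0, 0, 66.8, 63.4 and 249 CPM. Ddx58, the RIG-I sensor of triphosphate RNA, was at 182 CPM (138 to 235), 2.20-fold (1.58 to 3.02) the monocytic level. Tgfbr1, the receptor kinase that galunisertib inhibits, was at 40.8 CPM (21.7 to 69.7). The sensors of the other innate ligands were at or near the limit of detection: Tmem173 (STING) had 0 UMIs, which allows up to 9.41 CPM by 3 counts, against 46.0 CPM in monocytic cells, and Tlr7 had 3 UMIs. Ido1 had 0 UMIs as well, and the adenosine receptor Adora3 and Tnfrsf9 (4-1BB) had 3 each. Vcp and Nploc4, parts of the machine that copper diethyldithiocarbamate is reported to bind, stood at 37.6 and 6.27 CPM.

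Cells with few genes made up most of the population. The 267 neutrophils with under 500 genes held 63.6% of the UMIs, and the 56 with at least 500 genes held 36.4%, with medians of 719 and 1703 UMIs per cell. Of the genes with enough UMIs, 4.4% of 887 genes were at least 2-fold higher in the cells with few genes, 39 genes, and 14.5% were at least 2-fold lower, 129 genes. Chemokines stood at 104889 against 63865 CPM, a ratio of 1.64 (1.60 to 1.69), inflammatory genes at 37496 against 23458 CPM, a ratio of 1.60 (1.53 to 1.67) and the interferon list at 27842 against 21613 CPM, a ratio of 1.29 (1.23 to 1.35). With at most 1 UMI of 6 other cell type lists allowed, the interferon ratio was 1.12 (0.964 to 1.30), an interval that includes equality. The genes of the rule stood at 85759 against 52434 CPM, a ratio of 1.64 (1.59 to 1.68), and the rule requires 3 of them at any depth. Antigen presentation stood at 6784 against 7078 CPM, a ratio of 0.958 (0.878 to 1.05), and secondary granule genes were lower in the cells with few genes, at 2549 against 3285 CPM, a ratio of 0.776 (0.679 to 0.888). G0s2 was at 4235 against 1862 CPM, Ifitm1 at 2460.3 against 1155 CPM and Il1rap at 671 against 276 CPM.

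The 12 genes with the widest ratio between the 2 groups were all lower in the cells with few genes. Col3a1 and Col1a1, collagens of fibroblasts, stood at 187 against 2354 CPM and 153 against 1388 CPM, and 196 of 311 and 116 of 192 of their UMIs lay in 1 cell. Lyz2, abundant in monocytes, was at 118 against 1189.7 CPM, Tmsb10, an actin-binding peptide, at 133 against 1750.1 CPM and the ribosomal gene Rps24 at 271 against 1500.1 CPM. The monocyte marker list stood at 2194 against 6285 CPM, a ratio of 0.349 (0.310 to 0.393). Monocyte and fibroblast transcripts moved with the number of genes detected, and their part in the other differences was not tested. Without the limit of 5000 UMIs the interferon ratio between the 2 groups was 2.97.

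**Figure D5:**
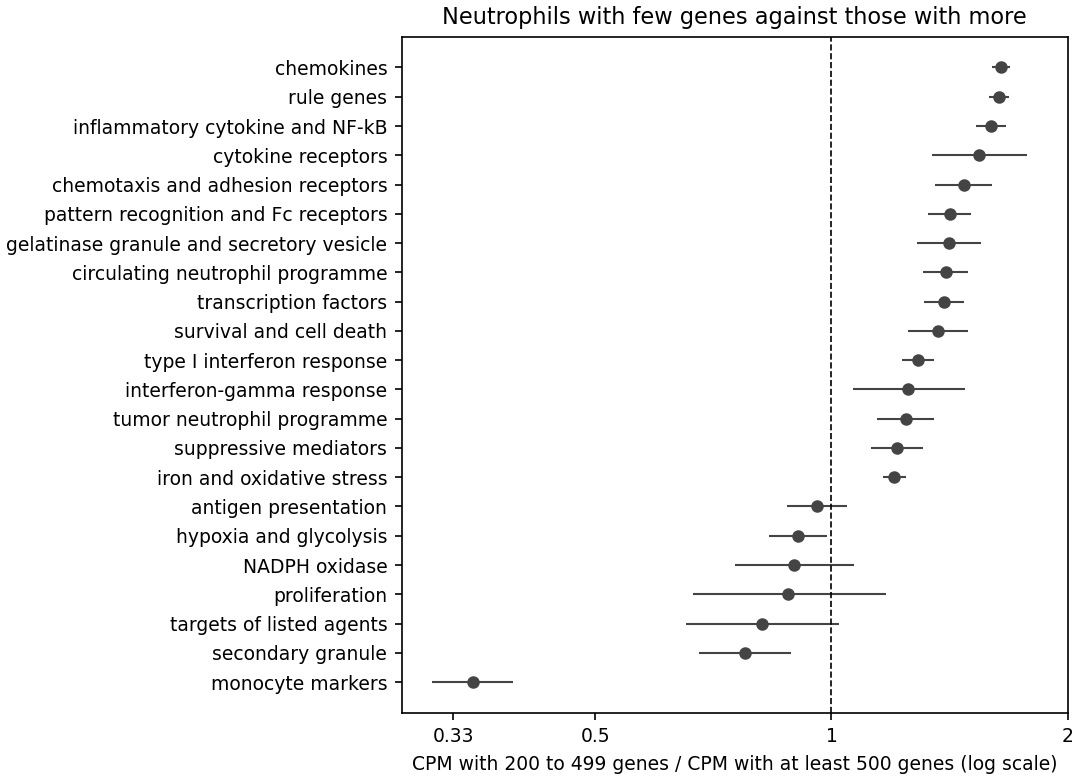
Ratio of summed CPM in neutrophils with under 500 genes (267 cells) to that in neutrophils with at least 500 genes (56 cells) (x axis, log scale), by gene list; bars are exact 95% intervals of the ratio for counting error and the dashed line marks equality. Chemokines (1.64) and inflammatory genes (1.60) lie to the right and monocyte markers (0.349) to the far left. At equal depth, cells with more chemokine UMIs tended to have fewer genes detected, which is not shown in the figure. With depth fixed, UMIs of the few chemokine genes leave fewer UMIs for other genes, so this tendency follows at least in part from arithmetic. Whether it goes beyond that was not tested.

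The 6 sets differed in how many neutrophils they held. The share was 0.934% in set 1, 0.640% in set 2, 1.35% in set 3, 2.38% in set 4, 2.46% in set 5 and 6.68% in set 6, of 2997, 2342, 889, 4035, 2892 and 1512 cells. The exact interval of set 6 (5.47 to 8.06%) lay above those of the other sets, and that of set 2 was 0.359 to 1.05%. Monocytic cells ranged from 3.67% in set 1 to 6.64% in set 3. Median depth of the neutrophils was 518 UMIs in set 1 and 917 in set 5. The main tag of its own set was the largest tag in all 323 neutrophils, and 0 cell barcodes were shared between sets. Scrublet, a doublet caller, marked 42 of 14667 cells (0.286%, under an expected 6%), so it cannot be taken to have found the doublets, and 0 of them were neutrophils.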

How the data were processed

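The authors deposited 1 filtered matrix of counts, whole UMIs per gene and cell, for cells pooled from 6 tumors with multiplexing tags. Per the submitters' processing notes, Cell Ranger 7.1, Seurat and the build mm10 were used, and per the file headers version 7.0.0 of it wrote the matrix. Whether doublets were removed is not given in the sources used here. The matrix held 32285 genes, 12 tags and 14818 cells, and tag counts stayed out of all totals. Depth limits every level: 318818 UMIs lay in the 323 neutrophils, where 3 counts equal 9.41 CPM.

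UMIs were summed over each population and scaled to 1000000 (CPM) (python 3.11.15, numpy 2.4.6, scipy 1.17.1, pandas 2.3.3). Folds used a floor of 3 counts. Thinning drew 300 UMIs per cell. Doublets were sought with Scrublet in scanpy 1.11.5, and figures were drawn with matplotlib 3.10.9. On simulated neutrophils against monocytic cells of any depth, all 100 genes changed 4-fold up and all 100 changed to 0.25-fold were called, while 4 of 8098 unchanged genes were called higher and 349 lower.

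Named genes were the rule genes; up to 4 members of each list with the highest level and at least 30 UMIs; every reagent target; and the genes most extreme against all other cells, against monocytic cells, between sets and between cells with few and more genes. Other list members are named as the members called higher or lower, and those were chosen after their values were seen. The members and lists were chosen with earlier results of these data known. Clec7a, Mx1, Mx2, BC100530 and Gm5483 were not analysed here, and single values of a few list members are not reported here. The alternatives were other limits on UMIs, genes, mitochondrial counts and rule genes, other-type markers, doublet score, each barcode set left out, other denominators and shallow comparison cells.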

Additional observations from a re-analysis of the deposited data

How the results depend on the processing

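No paired analysis was possible because the cells could not be tied to tumors. The share of neutrophils (2.20%) became 0.405% with at least 500 genes, 1.51% with at least 4 of the 6 genes and 1.08% with at most 1 UMI of 6 other cell type lists. The interferon, inflammatory and chemokine levels became 14596, 18704 and 47519 CPM with no upper limit on UMIs (352 cells), 26958, 35894 and 99939 CPM with at most 2000 UMIs, and 21613, 23458 and 63865 CPM with at least 500 genes. They became 18908, 37969 and 107267 CPM with at most 1 UMI of the 6 lists, and 28006, 35466 and 98512 CPM with rule and mitochondrial genes out of the total. With at least 4 of the 6 genes inflammatory genes stood at 30618 and chemokines at 81414 CPM, and under 10% mitochondrial counts chemokines stood at 91122 CPM. Without the 17 cells with at least 1% of UMIs from other lists, a choice made after seeing the data, they stood at 34250 (inflammatory) and 96532 CPM (chemokines).

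The interferon ratio of cells with few to more genes (1.29) was 2.97, 1.18, 1.21, 1.20, 1.12 and 1.17 under no UMI limit, at most 2000 UMIs, under 10% mitochondrial counts, 4 of 6 genes, 1 UMI of the 6 lists (interval 0.964 to 1.30) and without the 17 cells. It could not be computed with at least 500 genes. Genes higher than in all other cells (769) numbered 442 with at least 500 genes and 461 with 1 UMI of the 6 lists. Genes higher than in monocytic cells of any depth (569) numbered 335 with no UMI limit, 312 with at least 500 genes and 339 against shallow cells. Leaving out each barcode set gave shares of 1.69 to 2.53%, interferon levels of 21622 to 29234 CPM, inflammatory levels of 31609 to 33348 CPM, chemokine levels of 83182 to 97698 CPM, gene counts of 615 to 770 and 470 to 565, and interferon ratios of 1.13 to 1.51.

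Of 117 named genes followed over 1755 recomputed values, 1087 stayed within the main counting interval and 14 changed sign, for 9 genes, among them 2 limits of Tmem173 that are no change of level. On the log2 scale against all other cells, Col3a1 was 0.021 with no UMI limit and 0.22 with at least 500 genes, and Tmem173, which has 0 UMIs and so only an upper limit set by the floor of 3 counts, had a limit of 0.11 with at least 500 genes. With at most 1 UMI of the 6 lists, that limit was 0.086, AW112010 was -0.77, Saa3 -1.76 and Ccl5 -0.69. Against other cells with at most 5000 UMIs, Cyba was -0.019, H2-K1 -0.29, AW112010 -1.43, Saa3 -0.12, Ccl5 -0.87, Lyz2 -0.58 and Tmsb4x -0.25. Causes were not tested.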

Other observations

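Further genes, chosen after their values were seen, stood far above other myeloid cells in the neutrophils. Acod1, which makes itaconate, was at 4078 CPM against 204 CPM in monocytic cells, and at 300 UMIs it was seen in 62.8% of neutrophils, 6.67% of monocytic cells and 1.00% of cells drawn from the rest. Hdc, which makes histamine, was at 2036 against 31.1 CPM, although the mast cell and basophil markers had 0 UMIs in these cells. Hcar2, a receptor for niacin and ketone bodies, was at 1164 against 23.3 CPM, and Il1f9, an interleukin-36 gene, at 505 against 5.83 CPM. Srgn, the proteoglycan core protein of granules, was at 14610.2 against 4776 CPM.

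The counts of called members below stand beside 7.87% called higher and 45.1% lower of all genes compared with monocytic cells. Genes of hypoxia and glycolysis summed to 7164 CPM (6873 to 7464), 1.04-fold (0.995 to 1.09) the monocytic level, with 4 of 19 members called higher and 1 lower. Slc2a3, a glucose transporter, was at 392 against 11.7 CPM. Genes of survival and cell death summed to 7641 CPM (7340.3 to 7950.3), with 2 of 17 called higher, Casp4 and Fas, and 1, Bax, lower. Genes of iron and oxidative stress summed to 48203 CPM (47444 to 48971), with 1 of 14 called higher and 3 lower. In the survival and iron lists the share called higher was near that of all genes. Slc7a11, the cystine transporter, was the higher member of the iron list, at 3224 against 746 CPM. Among 15 transcription factors Egr1 (at 2757 against 434 CPM), Cebpd and Klf2 were called higher and Cebpa lower.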
